A study of Mus musculus with 6 samples.

Results

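The genes described here are those of oxidative phosphorylation (OXPHOS), the subunits of the 4 respiratory chain complexes (I to IV) and of ATP synthase (complex V). They were measured in bulk cultures labelled as cortical neurons, from Fmr1-KO and wild-type (WT) mice. They were taken by gene name (Nduf subunits, Sdha to Sdhd, Uqcr genes, Cyc1, Cox4 to Cox8, Atp5 genes and protein genes of mitochondrial DNA). Names that end as pseudogenes were left out, and a mean of at least 10 counts over the 6 libraries was required. The rule itself used no expression difference, but the list was chosen with earlier results of these data known. Of 55367 rows in the table, 99 carried such a name and 86 passed the minimum, 79 encoded in the nucleus and 7 in mitochondrial DNA. All 86 were among the 16976 genes tested. The lowest member was Ndufa4l2 at a mean of 14.5 counts, and the highest row below the minimum was mt-Nd3 at a mean of 4.67 counts.

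Complexes I and II pass electrons from NADH and succinate to ubiquinone, complex III passes them on to cytochrome c, and complex IV passes them to oxygen. Complexes I, III and IV pump protons, and complex V uses the proton gradient to make ATP, on which neurons depend to keep their ion gradients and synapses working. Most subunits are made from nuclear genes in the cytosol, whereas mitochondrial DNA encodes a small hydrophobic core of complexes I, III, IV and V and none of complex II, so each of the other complexes needs both genomes.

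RNA came from cerebral cortex of P1 pups (postnatal day 1, C57BL/6J), dissociated and cultured for 2 days in vitro, in 3 WT and 3 Fmr1-KO libraries. Fmr1 encodes FMRP, an RNA-binding protein whose loss causes fragile X syndrome. Both groups had the same culture and differ by genotype alone according to the labels, and the study's methods add that cells bearing the astrocyte antigen ACSA-2 and myelin were depleted with microbeads. The mice are called knock-out, and which Fmr1 allele they carried is not given in the sources used here.

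Libraries held 30348556 to 35126207 counts. Levels are given as CPM, counts scaled to a common library size by edgeR's TMM factors. A gene was called lower or higher at an adjusted P under 0.05 in edgeR's quasi-likelihood test, with P adjusted by Benjamini-Hochberg over all 16976 genes tested, and this test stands behind each adjusted P given. Fmr1 itself stood at 118, 112 and 109.6 CPM in WT and 54.2, 61.4 and 56.7 CPM in Fmr1-KO (log2 fold-change -0.98, SE 0.043, adjusted P = 2.25e-13), so Fmr1 RNA was at 50.6% of WT and not absent, and these libraries do not measure the protein. Among lists of cell type markers, the summed level of 14 neuronal markers was 5845 to 5985 CPM in WT and 4926 to 5165 in Fmr1-KO, with 11 lower, 2 higher and none at 0 counts. The 8 markers of excitatory neurons, 3 lower and 5 higher, summed to 600.2 to 611 and 591 to 622 CPM, and the 8 of GABAergic interneurons, 4 lower and 4 higher, to 729.5 to 757 and 783 to 861 CPM. The 9 of neural progenitors, of which 5 were higher and 4 not called, summed to 2480 to 2503 and 2804 to 2879 CPM, with Eomes at 9.12, 13.1 and 9.29 CPM in WT and 74.0, 80.0 and 64.4 CPM in Fmr1-KO. The 12 markers of proliferating cells summed to 659 to 695 CPM in WT and 1107 to 1156 in Fmr1-KO, all 12 higher. The 9 markers of the oligodendrocyte lineage, all 9 lower, summed to 2295 to 2494 and 1319 to 1420 CPM. The 8 of astrocytes, with 6 lower, summed to 5182 to 5279 and 4440 to 4853 CPM, so markers of depleted cells were present in both groups. The 9 of microglia, with 7 lower, summed to 216 to 238 and 126 to 140.0 CPM. Of 7 endothelial and mural markers tested 3 were lower and 3 higher, and the 5 erythroid markers, of which 2 were tested and both lower, summed to 1.84 to 2.34 and 0.915 to 1.32 CPM. The part of these markers in the differences below was not tested. In such bulk samples, fewer cells of a type and less RNA per cell cannot be told apart.

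Mitochondrial genes have near-identical copies in the nuclear genome, and 3 stretches are shown because they differ in how far they are shared with such a copy, beside the counts of the 13 mitochondrial protein genes given next. Each was read from GENCODE M21 transcripts (GRCm38), with capitals for bases inside the longest run that is identical in the annotated pseudogene named.
mt-Co1 (chrM:6364-6423, + strand): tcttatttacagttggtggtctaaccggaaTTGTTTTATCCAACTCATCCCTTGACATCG
mt-Co2 (chrM:7013-7072, + strand): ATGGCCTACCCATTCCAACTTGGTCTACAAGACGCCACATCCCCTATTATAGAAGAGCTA
mt-Nd4 (chrM:11013-11072, + strand): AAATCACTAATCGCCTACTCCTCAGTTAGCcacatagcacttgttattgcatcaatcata
In mt-Co1, which encodes the catalytic subunit of complex IV, the run shared with Gm29216 covered bases 1067 to 1545, or 31.0% of the gene. In mt-Nd4, a membrane subunit of complex I, the run shared with Gm28439 covered bases 1 to 876, or 63.6%. In mt-Co2, a copper-binding subunit of complex IV, the first 681 of 684 bases were identical in Gm28661, so the printed stretch is in capitals throughout. The 7 copies found on chromosome 1 lie side by side on the minus strand at chr1:24611535-24616197.

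The share of 100-base windows, about the length of a read, that recur in another annotated transcript separated the counted from the uncounted mitochondrial genes, apart from mt-Atp8. The share was 0% in mt-Nd1, mt-Nd5, mt-Nd6 and mt-Cytb, 3.20% in mt-Nd2, 30.8% in mt-Co1 and 60.8% in mt-Nd4, which are the 7 members. It was 97.6% in mt-Nd3, 98.5% in mt-Nd4l, 99.5% in mt-Co2 and mt-Atp6, and 99.9% in mt-Co3. Among these, mt-Nd3 had 7, 4 and 4 counts in WT and 4, 7 and 2 in Fmr1-KO, mt-Co2 and mt-Atp6 had 1 count each in a single WT library, and mt-Co3 and mt-Nd4l had 0 in all 6 libraries. A count of 0 for mt-Atp8 came with a share of 0%, so mt-Atp8 did not follow this pattern. By its annotation (chrM:7766-7969) it lies mostly between the copied parts of mt-Co2 and mt-Atp6. This interval is 233 bases in mitochondrial DNA and 233 bases between their copies on chromosome 1. No copy is annotated in the chromosome 1 interval, and its sequence was not read. The table therefore holds no usable value for these 6 genes in either genotype, and complex V has no mitochondrial member here. Whether shared sequence is the cause was not tested. The copies did not hold the missing counts, since 5 of the 7 on chromosome 1 had 0 or 1 count in every library and Gm28439 had at most 3. Gm29216 had 25, 1 and 0 counts in WT and 0, 1 and 33 in Fmr1-KO.

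**Figure D1:**
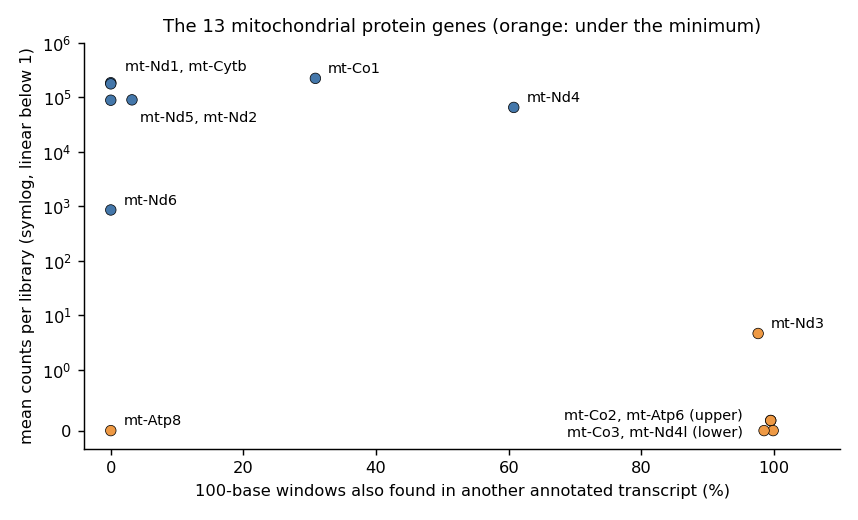
Mean counts per library (vertical axis, logarithmic above 1 and linear below) against the percentage of 100-base windows also found in another annotated transcript (horizontal axis) for the 13 protein genes of mitochondrial DNA, with members in blue and genes under the minimum of 10 counts in orange. The 5 genes above 97% sit at a mean of 4.67 counts or fewer, as does mt-Atp8 at 0%, and the 7 members sit far above them.

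The 7 measured mitochondrial genes outweighed the 79 nuclear members. Their counts summed to 2.42 to 2.57% of all counts, and the nuclear members to 0.894 to 0.968%, so the ratio of the genomes ran from 2.53 to 2.86 over the 6 libraries. Per kilobase of exon, the WT mean level was highest for mt-Nd1 (5606 CPM per kb), mt-Cytb (5077) and mt-Co1 (4421), followed by mt-Nd2 (2615), mt-Nd4 (1414) and mt-Nd5 (1397). On the same scale mt-Nd6, the only member annotated on the minus strand of mitochondrial DNA, was at 47.8, a level inside the range of nuclear members. The kit captured polyadenylated RNA, so levels compared between genes or genomes, that of mt-Nd6 included, also depend on how well each RNA was captured. Nuclear members had a median of 56.5 CPM per kb. Atp5a1 (322) and Atp5b (298.5), the F1 catalytic core of ATP synthase, were at the top, and Cox6b1 (266) was next. Lengths join all annotated exons of a gene, so ranks per kb depend on the annotation. Atp5b had a higher WT mean than Atp5a1 (1265 against 1010 CPM) over a longer exon length (4237 against 3135 bases). In complexes I, II and III, the highest nuclear members per kb were Ndufc2 (133), Sdhd (98.5) and Uqcrh (123). The counting options listed in the study's methods include none for reads that match several places, which featureCounts by default leaves out, so the levels of mt-Co1 and mt-Nd4, which share part of their sequence with copies, may be understated. Per 1000 windows that are not shared, the order was different, with WT means of 6830 CPM for mt-Co1, 6253 for mt-Nd1, 5559 for mt-Cytb, 3881 for mt-Nd4, 2986 for mt-Nd2 and 1478 for mt-Nd5.

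In Fmr1-KO libraries 26 nuclear and 1 mitochondrial OXPHOS genes were lower and 2 nuclear genes were higher, nearly all by small amounts. The other 57 of the 86 members were not called. Of 79 nuclear members, 32.9% were called lower and 2.53% higher, beside 21.9% lower and 20.7% higher, or 42.6% either way, over all 16976 genes. Of the 7 mitochondrial members, 1 was lower (14.3%) and 0 higher. At an unadjusted P under 0.05 (edgeR) 2 were lower and 0 higher, and DESeq2 called 2 lower and 0 higher. The number of nuclear members called lower was 11 without WT library 3, 14 without Fmr1-KO library 2 and 11 with library totals alone as scaling, and the 1 mitochondrial call lower became 2 without Fmr1-KO library 2. The count of 0 mitochondrial members higher became 1 without WT library 1, WT library 2 or Fmr1-KO library 1, and the 2 nuclear members higher became 1 without WT library 1, Fmr1-KO library 1 or Fmr1-KO library 3. The median log2 fold-change was -0.065 in the nuclear members (95.6% of WT) and -0.016 in the mitochondrial members (98.9%), beside 0.0060 over all genes tested. With single libraries left out, the nuclear median ran from -0.086 to -0.052 and the mitochondrial median from -0.048 to 0.017, and the difference between the genomes was not tested. A value below 0 was found for 65 of the 79 nuclear and 4 of the 7 mitochondrial members, beside 8273 of the 16976 genes tested. Changes were small, with 84 of the 86 members (97.7%) within 0.2 of 0 on the log2 scale, against 59.1% of all genes tested. The exceptions were Cox6a2 and Cox7a1. No background of genes matched to the members in level was made, for these shares or for those of calls. In 39 members every Fmr1-KO library lay below every WT library and in 2 above, or 36 (45.6%) and 2 of the nuclear members, where the background over all genes was 26.3% and 25.4%.

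**Figure D2:**
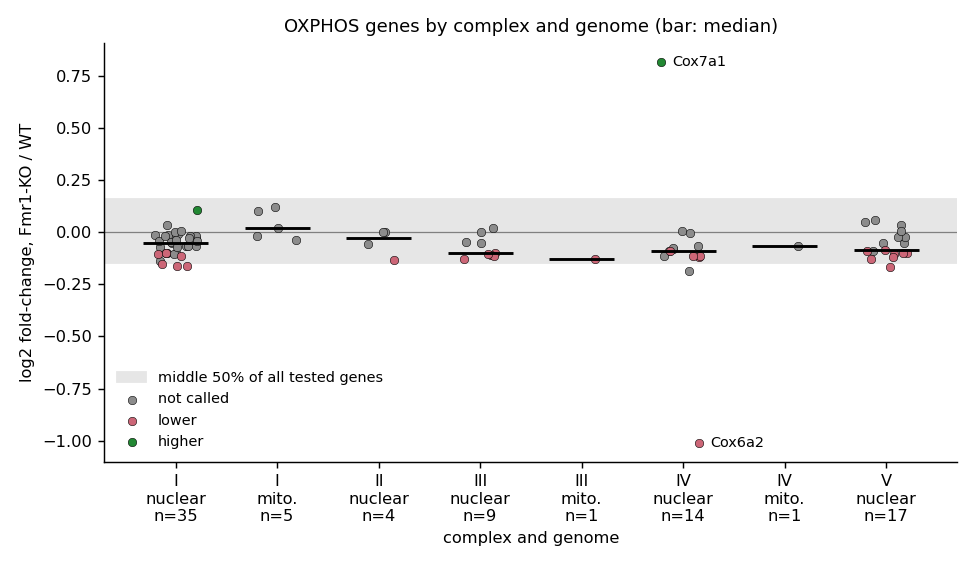
Log2 fold-change of Fmr1-KO over WT (vertical axis) for the 86 members by complex and genome (horizontal axis), where each point is a gene, bars are medians, colour marks the call and the grey band is the middle 50% of all genes tested. Most points lie within the band and below 0, and only Cox7a1 and Cox6a2 lie far outside it.

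The nuclear members summed to 9491, 9513 and 9769 CPM in WT and 9271, 8863 and 9187 CPM in Fmr1-KO, so the groups did not overlap and Fmr1-KO reached 95.0% of WT, with the second Fmr1-KO library lowest. The mitochondrial members summed to 25030, 25970 and 24720 CPM in WT and 23930, 25360 and 24330 CPM in Fmr1-KO (97.2% of WT), and here the groups overlapped, with the second library of each genotype highest. Summed by complex, the nuclear members of Fmr1-KO stood at 96.6% of WT in complex I, 97.4% in II, 94.7% in III, 94.0% in IV and 93.9% in V. These sums are weighted by the most abundant genes and received no test.

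**Figure D3:**
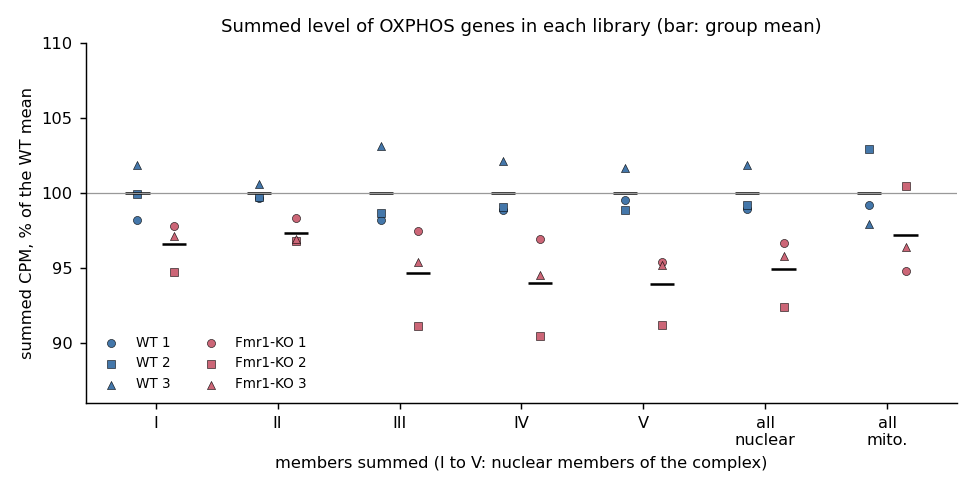
Summed CPM of the nuclear members of each complex, of all 79 nuclear and of all 7 mitochondrial members in each library, as percent of the WT mean (vertical axis, not from 0), with points for libraries and bars for group means. Fmr1-KO libraries lie below WT libraries in every nuclear group and overlap them in the mitochondrial group.

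Complexes III, IV and V had lower medians than complexes I and II. The median log2 fold-change of nuclear members was -0.098 in complex III, -0.090 in complex IV and -0.087 in complex V, against -0.052 in complex I and -0.029 in complex II. Calls lower numbered 5 of 9 (55.6%), 5 of 14 (35.7%) and 8 of 17 (47.1%) in complexes III, IV and V. They numbered 7 of 35 (20%) and 1 of 4 (25%) in complexes I and II, near the share of 21.9% over all genes. In sign, complex I was not near the background, with 31 of 35 members below 0, beside 8273 of 16976 genes tested. In complex II, 2 of 4 were below 0. Calls higher were 1 in complex I and 1 in complex IV, against 20.7% of all genes. The complexes were not tested against each other. The spread of the medians between libraries of one genotype was 0.020 to 0.050 on this scale, as large as several of the gaps between complexes. With library totals alone as scaling, which raised the median over all genes from 0.0060 to 0.034, the medians were -0.025 in complex I, -0.00075 in complex II and -0.059 in complex V.

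Complex I, NADH dehydrogenase, had 35 nuclear members, of which 7 were lower (20%, near the 21.9% of all genes), 1 was higher and 27 were not called (log2 fold-changes -0.14 to 0.034, 24 below 0). By part of the complex, 2 of 8 members were lower in the N module, which oxidizes NADH, 2 of 8 in the Q module, which reduces ubiquinone, and 3 of 19 in the membrane arm, which also held the gene that was higher. Ndufa9, a subunit at the ubiquinone site, stood at 105, 99.5 and 106 CPM in WT libraries 1 to 3 and 90.0, 94.8 and 93.4 CPM in Fmr1-KO libraries 1 to 3. Every Fmr1-KO library was below every WT library (log2 fold-change -0.16, SE 0.036, adjusted P = 0.00101). Ndufa8, a membrane-arm subunit, stood at 74.4, 74.6 and 75.9 CPM in WT and 67.6, 65.0 and 68.4 CPM in Fmr1-KO, again without overlap (log2 fold-change -0.16, SE 0.036, adjusted P = 0.00106). Ndufb6, also of the membrane arm, had 56.4, 58.1 and 58.9 CPM in WT and 53.6, 50.1 and 52.1 CPM in Fmr1-KO (log2 fold-change -0.15, SE 0.04, adjusted P = 0.00381), though 24.0% of its windows recur in other transcripts. The other 4 lower genes were Ndufv3, Ndufs8, Ndufb9 and Ndufs4, with log2 fold-changes of -0.11, -0.10, -0.10 and -0.10 and adjusted P of 0.0261, 0.0319, 0.044 and 0.045.

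Ndufc2, a small membrane-arm subunit, went the other way. It stood at 95.5, 102 and 103 CPM in WT and 109.8, 105 and 109 CPM in Fmr1-KO, with every Fmr1-KO library above every WT library (log2 fold-change 0.11, SE 0.036, adjusted P = 0.0227). The core subunits Ndufv1, which binds NADH, and Ndufs7, near the ubiquinone site, were not called, at log2 fold-changes of 0.0056 and -0.035 (adjusted P = 0.908 and 0.568). Lower calls in complex I numbered 3 without WT library 3, 4 without Fmr1-KO library 1 and 3 with DESeq2 or library totals alone. The call for Ndufc2 was lost without WT library 1 and without Fmr1-KO library 1 or 3, with log2 fold-changes of 0.072 to 0.13 when single libraries were left out.

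Complex II, succinate dehydrogenase, is the only complex made from nuclear genes alone. Of its 4 subunits 1 was lower (25%, near the 21.9% of all genes). Sdhb, the iron-sulphur subunit, had 142, 142 and 147 CPM in WT and 130.2, 130.2 and 133 CPM in Fmr1-KO, without overlap (log2 fold-change -0.13, SE 0.032, adjusted P = 0.00155). Sdha, the flavoprotein subunit that holds the succinate site, had 277, 279 and 277 CPM in WT and 281, 280.3 and 273 CPM in Fmr1-KO (log2 fold-change 0.0016, adjusted P = 0.971). Of the membrane anchors, Sdhc was at 109, 108 and 108 CPM in WT and 111, 104 and 109 CPM in Fmr1-KO (log2 fold-change 0.00066, adjusted P = 0.99) and Sdhd at 120.3, 120.5 and 123 CPM in WT and 119, 115 and 115 CPM in Fmr1-KO (log2 fold-change -0.058, adjusted P = 0.155). The groups overlapped for Sdha and Sdhc but not for Sdhd, whose difference missed the threshold.

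In complex III, cytochrome bc1, both core proteins and both nuclear-encoded catalytic subunits were lower. Of its 9 nuclear members 5 were lower (55.6%) and 0 higher, beside 21.9% and 20.7% of all genes. Uqcrc1 and Uqcrc2, the core proteins, stood at 190.3, 191 and 199 CPM in WT and 182, 168 and 181 CPM in Fmr1-KO (log2 fold-change -0.13, SE 0.035, adjusted P = 0.00532) and at 216, 209 and 224 CPM in WT and 201, 195 and 204 CPM in Fmr1-KO (log2 fold-change -0.11, SE 0.033, adjusted P = 0.00789). Neither had overlapping groups. Uqcrfs1, the Rieske iron-sulphur protein, and Cyc1, cytochrome c1, were lower by log2 fold-changes of -0.10 and -0.10 (adjusted P = 0.0288 and 0.0314), each with overlapping groups. Of the 5 small subunits, Uqcrb was lower (68.3, 66.6 and 69.2 CPM in WT and 64.2, 62.0 and 63.2 CPM in Fmr1-KO, log2 fold-change -0.11, SE 0.037, adjusted P = 0.0223), and Uqcr10, Uqcr11, Uqcrh and Uqcrq were not called, between -0.053 and 0.019. Of these 9 genes, 1 was called lower without WT library 3, 2 without Fmr1-KO library 2 and 3 without WT library 1 or Fmr1-KO library 3.

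Complex IV, cytochrome c oxidase, held the 2 largest changes among all members, both in isoforms of low level that are best known from heart and skeletal muscle. Cox6a2 (chr7:128205435-128206387, GRCm38) had 56, 69 and 71 counts in WT and 41, 27 and 26 counts in Fmr1-KO. Every Fmr1-KO library was below every WT library (log2 fold-change -1.01, SE 0.21, adjusted P = 0.000452). Its widely expressed paralog Cox6a1 was at 139, 142 and 147 CPM in WT and 140.3, 122 and 131 CPM in Fmr1-KO (log2 fold-change -0.12, SE 0.041, adjusted P = 0.0244), with overlapping groups. Cox6a2 counts were 1.16, 1.47 and 1.45% of Cox6a1 counts in WT and 0.899, 0.721 and 0.570% in Fmr1-KO, so the minor isoform fell within the pair as well.

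Cox7a1 (chr7:30184144-30186078) had 26, 35 and 33 counts in WT and 60, 42 and 59 counts in Fmr1-KO, with all Fmr1-KO libraries above all WT libraries (log2 fold-change 0.82, SE 0.20, adjusted P = 0.00245). The widely expressed paralog Cox7a2 was at 111, 111 and 109.6 CPM in WT and 113, 106 and 112 CPM in Fmr1-KO and was not called (log2 fold-change -0.0038, adjusted P = 0.943). Cox7a1 amounted to 0.677, 0.953 and 0.902% of Cox7a2 counts in WT and to 1.63, 1.30 and 1.52% in Fmr1-KO. A further muscle isoform, Cox8b, was under the minimum and untested, with 1, 1 and 1 counts in WT and 5, 7 and 10 counts in Fmr1-KO, while its paralog Cox8a was not called (116, 119.9 and 127 CPM in WT and 121, 111 and 112 CPM in Fmr1-KO, adjusted P = 0.126). Other minor isoforms were not called. Cox6b2, known from testis, had 213, 179 and 201 counts in WT and 192, 196 and 187 counts in Fmr1-KO (log2 fold-change 0.0053, SE 0.10, adjusted P = 0.973), and Ndufa4l2, known to be induced by hypoxia, had 16, 16 and 15 counts in WT and 11, 14 and 15 counts in Fmr1-KO (log2 fold-change -0.18, SE 0.30, adjusted P = 0.665).

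**Figure D4:**
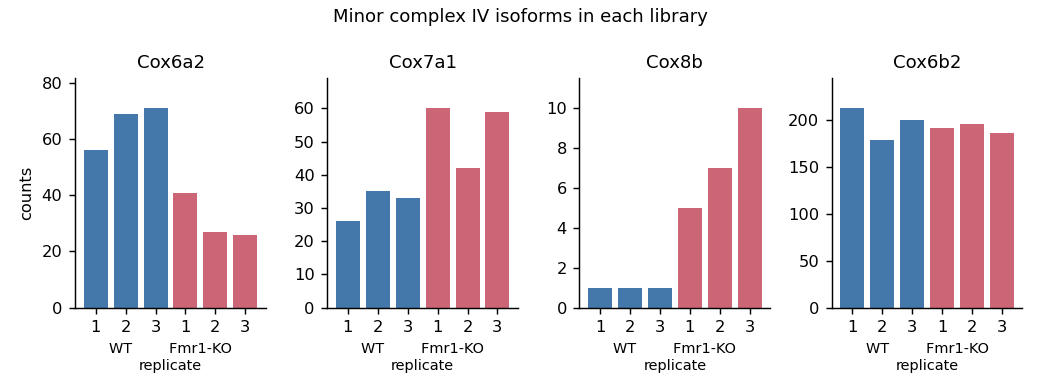
Counts (vertical axis, from 0 and different in each panel) of 4 minor complex IV isoforms in each WT (blue) and Fmr1-KO (red) library. Cox6a2 was lower in all 3 Fmr1-KO libraries, Cox7a1 and the untested Cox8b were higher in all 3, and Cox6b2 overlapped between the groups.

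The other complex IV members changed little. Cox6b1, which joins the monomers of the complex, was at 187, 185 and 194 CPM in WT and 176, 171 and 175 CPM in Fmr1-KO, without overlap (log2 fold-change -0.11, SE 0.031, adjusted P = 0.00495). Cox7b and Ndufa4 were also lower, by log2 fold-changes of -0.11 and -0.09 (adjusted P = 0.0122 and 0.0363). In the 10 members left without Cox6a2, Cox6b2, Cox7a1 and Ndufa4l2, 4 were lower (40%, beside 21.9% of all genes) and none was higher. Their median was -0.090. Outside the name rule, Cox4i1, the main isoform of subunit 4, stood at 303, 301 and 309.9 CPM in WT and 305, 293 and 303 CPM in Fmr1-KO (log2 fold-change -0.022, adjusted P = 0.578). Cox4i2, its hypoxia-linked paralog, had 13, 8 and 18 counts in WT and 11, 8 and 13 counts in Fmr1-KO (adjusted P = 0.64). Cox7a2l, of the paralog family of Cox7a1 and Cox7a2, was not called either (0.053, adjusted P = 0.287). Lower calls in complex IV numbered 2 without Fmr1-KO library 2, 3 without WT library 3 and 8 without Fmr1-KO library 1.

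ATP synthase had 8 of 17 members lower (47.1%) and 0 higher, beside 21.9% and 20.7% of all genes. At an unadjusted P under 0.05 (edgeR) 9 were lower and 0 higher, and DESeq2 called 8 and 0. In the F1 head, where ATP is made, 3 of 5 were lower. Atp5b, the catalytic beta subunit and the nuclear member with the most counts, stood at 1273, 1242 and 1279 CPM in WT libraries 1 to 3 and 1177, 1125 and 1169.8 CPM in Fmr1-KO libraries 1 to 3. No Fmr1-KO library reached a WT library (log2 fold-change -0.13, SE 0.028, adjusted P = 0.000889). Atp5a1, the alpha subunit, followed at 1009.6, 999 and 1022 CPM in WT and 948, 920.3 and 962 CPM in Fmr1-KO (log2 fold-change -0.10, SE 0.028, adjusted P = 0.00684) and Atp5c1, the central shaft, was lower with a smaller difference (log2 fold-change -0.087, adjusted P = 0.0287). Atp5k, a membrane subunit, was at 67.5, 67.4 and 73.0 CPM in WT and 64.2, 63.2 and 63.9 CPM in Fmr1-KO (log2 fold-change -0.12, SE 0.039, adjusted P = 0.0182). Atp5j2 and Atp5pb, of the membrane part and outer stalk, were lower by -0.10 and -0.091 (adjusted P = 0.0293 and 0.0224), and the 9 members not called lay between -0.089 and 0.060. Lower calls numbered 3 of 17 without WT library 3 and 4 of 17 without Fmr1-KO library 2, near the share of all genes.

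The c-ring, the rotor through which protons pass, is made of one mature protein from 3 genes that differ in their targeting peptides. Atp5g1 was lower (62.2, 60.6 and 61.3 CPM in WT and 55.5, 52.4 and 56.3 CPM in Fmr1-KO, log2 fold-change -0.16, SE 0.039, adjusted P = 0.00189), as was the predominant Atp5g3 (245, 247 and 253 CPM in WT and 239.7, 218 and 237 CPM in Fmr1-KO, log2 fold-change -0.10, SE 0.035, adjusted P = 0.0229). Atp5g2 was not called (16.8, 18.2 and 18.5 CPM in WT and 18.9, 18.2 and 18.2 CPM in Fmr1-KO, log2 fold-change 0.048, adjusted P = 0.568), and 34.7% of its windows recur in other transcripts. Of the c-ring counts, Atp5g1 took 18.4 to 19.2% in WT and 17.7 to 18.2% in Fmr1-KO. Atp5g2 took 5.20 to 5.58% and 5.84 to 6.30%, and Atp5g3 took 75.6 to 76.0% and 75.5 to 76.3%, so only the shares of Atp5g3 overlapped.

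Among mitochondrial members, only mt-Cytb was called. mt-Cytb, cytochrome b, encodes the single mitochondrial subunit of complex III, where the nuclear core proteins were lower too, and stood at 5741, 6022 and 5663 CPM in WT libraries 1 to 3 and 5137, 5476 and 5312 CPM in Fmr1-KO libraries 1 to 3. Each Fmr1-KO library was below each WT library (log2 fold-change -0.13, SE 0.03, adjusted P = 0.00151). Within the summed counts of the 7 mitochondrial members its share was 22.9 to 23.2% in WT and 21.5 to 21.8% in Fmr1-KO, again without overlap. For mt-Co1, values were 6940.4, 6768 and 6782 CPM in WT and 6641, 6535 and 6421 CPM in Fmr1-KO, also without overlap, but the difference missed the threshold (log2 fold-change -0.064, SE 0.026, adjusted P = 0.0558), although it was called lower with DESeq2, without a filter and without Fmr1-KO library 2.

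The 5 mitochondrial genes of complex I, all membrane subunits, were not called, with a median of 0.019. mt-Nd1 had 5359.8, 5378 and 5358 CPM in WT and 5216, 5335 and 5158 CPM in Fmr1-KO (log2 fold-change -0.035, adjusted P = 0.3), with Fmr1-KO values just below WT values. mt-Nd5 was highest in the second library of both genotypes, at 2401, 2768 and 2477 CPM in WT and 2449, 3133 and 2747 CPM in Fmr1-KO (log2 fold-change 0.12, SE 0.059, adjusted P = 0.103). It was called higher in 5 of 15 alternatives, namely library totals alone, no filter, the replicate block, and without WT library 2 or Fmr1-KO library 1, and its log2 fold-change ran from 0.027 without Fmr1-KO library 2 to 0.21 without Fmr1-KO library 1. mt-Nd2 and mt-Nd4 had log2 fold-changes of -0.016 and 0.019 (adjusted P = 0.777 and 0.716). The groups overlapped for both. mt-Nd6 had 34.2, 20.5 and 19.7 CPM in WT and 23.6, 26.0 and 30.4 CPM in Fmr1-KO (log2 fold-change 0.10, SE 0.14, adjusted P = 0.579), and its first WT library stood apart from the other two. Without that library mt-Nd6 was called higher (log2 fold-change 0.41).

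**Figure D5:**
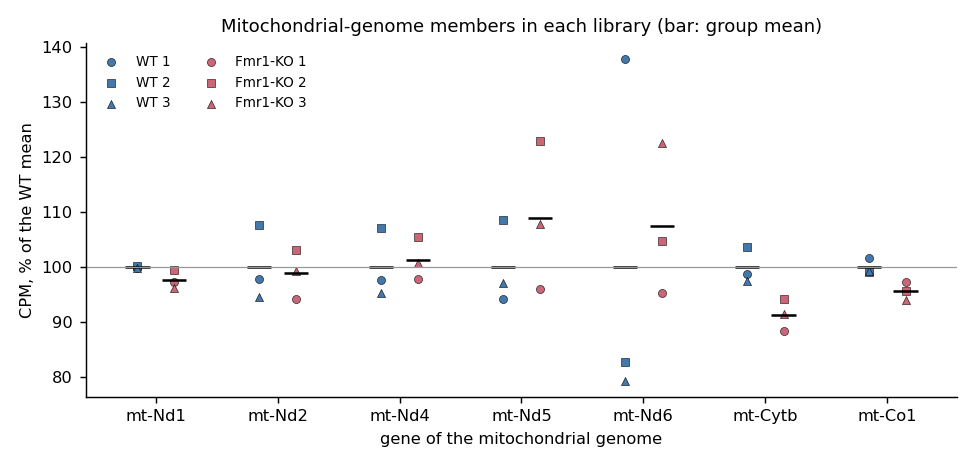
CPM of the 7 mitochondrial members in each library as percent of the WT mean of the gene (vertical axis, not from 0), with points for libraries and bars for group means. Fmr1-KO lies below WT without overlap for mt-Nd1, mt-Cytb and mt-Co1, and only mt-Cytb passed the test.

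The mitochondrial ribosomal RNAs, which are not members, were both lower. mt-Rnr1, of the small ribosomal subunit, had 267, 275 and 268 CPM in WT and 232, 221 and 237 CPM in Fmr1-KO (log2 fold-change -0.23, SE 0.032, adjusted P = 4.33e-06). mt-Rnr2, of the large subunit, had 697, 771 and 695 CPM in WT and 671, 656 and 685 CPM in Fmr1-KO (log2 fold-change -0.10, SE 0.035, adjusted P = 0.0214). The libraries were made with a kit for polyadenylated RNA, so these values are levels of the captured RNA. Without WT library 2 or Fmr1-KO library 1 or 2, 1 of these calls was lost.

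Promoters of nuclear members were searched on both strands for GCGCATGC (NRF1), CCGGAAG (GABPA) and AAGATGGC (YY1), motifs of regulators known to act on respiratory genes. RefSeq promoters (GRCm38.p6, from 250 bases before to 50 after the start) were found for 65 of the 79 genes, 70 promoters in all. The motifs occurred in 14.3, 24.3 and 14.3% of them, against 2.71, 8.86 and 2.75% of all 32851 promoters, with a median GC content of 58.0 against 52.7%. In the 21 promoters of genes called lower the shares were 23.8, 28.6 and 19.0%, and in the other 49 they were 10.2, 22.4 and 12.2%, counts of 5, 6 and 4 against 5, 11 and 6. The stretches below, upstream of the RefSeq start, belong to genes lower in Fmr1-KO, with motif bases in capitals. By the GENCODE positions used elsewhere, those of Sdhb and Ndufa8 lie inside the gene, and those of Atp5k and Cox6b1 overlap it. Only such genes are shown, although the motifs also occur in promoters of other members, and a link between motif and call was not tested. In Atp5k and Cox6a1 the NRF1 motif is present on both strands in overlapping positions.
Atp5k (chr5:108434431-108434460, - strand): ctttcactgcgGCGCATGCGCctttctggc
Cox6a1 (chr5:115349102-115349131, - strand): acaggaacgggGCGCATGCGCgctctcgct
Ndufa8 (chr2:36049339-36049368, - strand): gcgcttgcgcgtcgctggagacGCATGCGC
Sdhb (chr4:140961206-140961235, + strand): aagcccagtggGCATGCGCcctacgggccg
Cox6b1 (chr7:30626124-30626153, - strand): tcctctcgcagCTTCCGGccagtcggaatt
Ndufb6 (chr4:40279635-40279664, - strand): tcgtccttgttCTTCCGGtcccctccccta
The first 4 hold the NRF1 motif and the last 2 the GABPA motif. A match in these letters does not show binding.

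Calls among the regulators themselves went both ways. Nrf1 was higher (35.6, 35.8 and 35.9 CPM in WT and 41.6, 40.0 and 43.2 CPM in Fmr1-KO, log2 fold-change 0.22, SE 0.044, adjusted P = 0.000411), as was Gabpa (70.1, 70.1 and 63.4 CPM in WT and 75.7, 80.6 and 75.0 CPM in Fmr1-KO, log2 fold-change 0.18, SE 0.043, adjusted P = 0.00159), while Pprc1, a PGC-1 related coactivator, was lower (53.7, 53.0 and 55.5 CPM in WT and 45.4, 48.9 and 47.9 CPM in Fmr1-KO, log2 fold-change -0.19, SE 0.042, adjusted P = 0.000868) and Yy1 was lower by -0.10 (adjusted P = 0.0282). Of the 11 regulators tested, 2 were lower (18.2%) and 3 higher (27.3%), near the 21.9% and 20.7% of all genes, with a median of -0.049. Ppargc1a, the best known coactivator of mitochondrial biogenesis, was not called (log2 fold-change -0.12, adjusted P = 0.0848).

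Of 51 assembly factors, which build the complexes but are not part of them, 7 were lower (13.7%) and 5 higher (9.8%), both under the 21.9% and 20.7% of all genes, and the median was 0.0076. The largest were Sco2, for copper delivery to complex IV, and Atpaf1, for the F1 head, at -0.38 and -0.30 (adjusted P = 0.0289 and 0.00827), and Nubpl and Ndufaf8, for complex I, at 0.30 and 0.28 (adjusted P = 0.011 and 0.0387). Of 29 genes of mitochondrial DNA maintenance and expression, 3 were lower (10.3%) and 2 higher (6.9%), again under those shares, with a median of 0.0096. Among them Fastkd1 was lower (-0.16, adjusted P = 0.0326) together with Polrmt, the mitochondrial RNA polymerase (-0.13, adjusted P = 0.0347), and Tfb1m and Ssbp1, a methyltransferase of ribosomal RNA and the single-strand DNA binding protein, were higher (0.28 and 0.20, adjusted P = 0.035 and 0.00123). No gene of this list was called lower with DESeq2, with library totals alone, or without WT library 1, WT library 2 or Fmr1-KO library 3, and 1 was without WT library 3 or Fmr1-KO library 1. Tfam, which packages mitochondrial DNA, was not called (0.061, adjusted P = 0.255).

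In the tricarboxylic acid cycle, 6 of 14 were lower (42.9%) and 2 higher (14.3%), beside 21.9% and 20.7% of all genes, with a median of -0.064, led by Idh3a (-0.21, adjusted P = 1.19e-05) and Fh1 (-0.17, adjusted P = 0.00069) and, upward, by Idh2 (0.38, adjusted P = 1.76e-09) and Suclg2 (0.15, adjusted P = 0.0332). Of 17 genes of the outer membrane, import and carriers, 7 were lower (41.2%) and 0 higher, with a median of -0.055, led by the import receptors Tomm70a (-0.26, adjusted P = 3.45e-07) and Tomm20 (-0.26, adjusted P = 2.01e-06). DESeq2 called 0 of these 17 higher, and in edgeR 1 was higher at an unadjusted P under 0.05 and 1 was called higher without Fmr1-KO library 2. Of 17 glycolytic genes, 8 were lower (47.1%) and 2 higher (11.8%), with a median of -0.072, led by Eno2, the neuronal enolase (-0.56, adjusted P = 1.04e-09), and Pfkp (-0.51, adjusted P = 8.70e-09), with Ldhb and Aldoc higher (0.18 and 0.13, adjusted P = 0.000185 and 0.000851). Of 7 OXPHOS proteins outside the name rule, Cycs, which is cytochrome c, and Atpif1, an inhibitor of ATP synthase, were lower (-0.19 and -0.10, adjusted P = 0.00311 and 0.0151).

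Of the 29 members called, 12 were called in every alternative that tested them other than the minimum fold-change of 1.2, namely Ndufa8, Ndufa9, Ndufb6, Sdhb, Uqcrc1, Cox6a2, Cox6b1, Cox7a1, Atp5a1, Atp5b, Atp5g1 and mt-Cytb, and only Cox6a2 and Cox7a1 also exceeded that minimum.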

How the data were processed

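RNA-seq was analysed in 6 libraries, 3 WT and 3 Fmr1-KO, with groups from the labels. As deposited by the authors, the values are raw counts per gene, not normalized. Single-end reads from a stranded kit for polyadenylated RNA were aligned to GRCm38.p6 with STAR and counted over exons in reverse-stranded mode with featureCounts. The submitters' processing notes name STAR 2.7.6a and Subread 2.0.1, whereas the study's methods name another Subread release and an earlier STAR release as a further possibility, so the versions behind these counts are uncertain. Counting by strand separates a gene from antisense neighbours but not from a near-identical copy, and one value per gene name merges isoforms.

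The test was edgeR 4.0.16 in R 4.3.3 (filterByExpr, TMM, glmQLFit, glmQLFTest, 2-sided), a model of genotype alone, fitted on all 16976 genes that passed the filter and adjusted by Benjamini-Hochberg. SE is the size of the log2 fold-change over the square root of F. The common biological coefficient of variation was 3.22%. The script was tested on simulated data in which 200 genes were changed by 1 log2 unit. Recovery of changes as small as those of most members was not examined. The study used DESeq2, which was run here (version 1.42.0) as an alternative. Other alternatives were RLE and upper-quartile factors, library totals alone, a stricter filter (mean counts of 10 and mean CPM of 5 or more), no filter, a replicate block, scaling without mitochondrial rows, a minimum fold-change of 1.2 and each library left out.

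Members came from a name rule. Members, lists and named genes were chosen with earlier results of these data known, so no list received a test and no list is independent evidence. Named with values were all mitochondrial members, all of complex II, the 3 largest called decreases and increases of each other complex, paralog families, the most abundant members per length, and the 2 largest called changes each way in related lists. Other genes, such as the lower members not among these and Ndufv1, Ndufs7, Ppargc1a and Tfam, were named after their values were seen. Complexes and roles were assigned by hand, with Ndufa4 and Ndufa4l2 in complex IV. Exon lengths, positions and 100-base windows came from GENCODE M21, where all 99 names were found, 2 of them under an older name. Atp5pb and Atp5md are named as in the table. The 11 names left out as pseudogenes include Ndufb1-ps, which had 1477 to 1962 counts. Libraries of one genotype differed beyond sampling noise (chi-square over degrees of freedom 2.24 to 3.87). The labels do not say that replicates came from separate cultures. The study's figure legend describes 3 independently derived samples, without saying whether they differ by animal, litter or culture. P values measure the spread between these libraries.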

Additional observations from a re-analysis of the deposited data

Results flagged for a closer look

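Outside the members, mitochondrial DNA contributed 24 rows, of which 14 had a count and 8 were tested. mt-Ti, a transfer RNA gene for isoleucine, was singled out as a signal in rows that none of the comparisons used, with 61, 50 and 56 counts in WT and 94, 91 and 91 in Fmr1-KO (log2 fold-change 0.77, SE 0.15, adjusted P = 0.000207, edgeR). It was higher in 3 of 3 Fmr1-KO libraries. Transfer RNA rows are thinly covered in libraries of polyadenylated RNA, and what the counted fragments are was not tested.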

How the results depend on the processing

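No alternative turned the direction of a median of nuclear members in any complex, and the call of Fmr1 held in all. A minimum fold-change of 1.2 left 1340 genes lower and 883 higher over all genes, 1 nuclear member lower and 1 higher, and 0 mitochondrial members lower. With library totals alone, 11 nuclear members were lower and 1 mitochondrial member was higher, the medians were -0.037 for nuclear members, -0.025 for complex I, -0.00075 for complex II and -0.059 for complex V, and mt-Nd2, Cox4i1 and Cox7a2 stood at 0.012, 0.0056 and 0.024. With upper-quartile factors Cox7a2 stood at 0.0068. The stricter filter left 1 nuclear member higher, since Cox7a1 and Cox6a2 were not tested there. DESeq2 called 2 mitochondrial members lower and put Sdhc at -0.0018 and Sdha at -0.00096. Without a filter 2 mitochondrial members were lower and 1 higher, and Sdhc was at -0.00060. RLE factors put Sdhc at -0.00015. Replicate numbers did not pair the libraries (correlations of same-numbered deviations -0.151, 0.108 and 0.045), and the replicate block called 1 mitochondrial member higher. Leaving out single libraries gave 11 to 24 nuclear members lower, lowest without WT library 3 and 14 without Fmr1-KO library 2, and 1 to 2 higher. It gave 1 to 2 mitochondrial members lower and 0 to 1 higher, and a complex V median of -0.090 to -0.054. Among single genes that changed sign in this way, none of them called with all libraries, mt-Nd2 ranged from -0.056 to 0.039, mt-Nd4 from -0.015 to 0.071, mt-Nd6 from -0.039 to 0.41, Sdhc from -0.018 to 0.025, Sdha from -0.0059 to 0.013, Cox4i2 from -0.48 to 0.076, Cox6b2 from -0.057 to 0.069, Cox7a2 from -0.024 to 0.025 and Uqcrh from -0.014 to 0.059. The causes were not tested. Depth limits Cox6a2 and Cox7a1, at 26 to 71 counts, more than other called members.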

Other observations

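Other transfer RNA rows of mitochondrial DNA moved the other way from mt-Ti. mt-Tt, for threonine, had 47, 47 and 53 counts in WT and 18, 21 and 25 in Fmr1-KO (log2 fold-change -1.15, SE 0.21, adjusted P = 0.000159, edgeR). mt-Tw, for tryptophan, had 127, 157 and 128 counts in WT and 79, 64 and 100 in Fmr1-KO (log2 fold-change -0.72, SE 0.14, adjusted P = 0.000354). The genotypes did not overlap in either. mt-Tm, mt-Tp and mt-Tq were not called, with adjusted P of 0.301, 0.866 and 0.777. mt-Tp had 40 counts in WT library 1 and 6 in each of the other WT libraries.

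Of the 7 rows under the minimum that name nuclear OXPHOS genes, Cox8b differed most between genotypes in counts, and Cox7b2, Ndufs6b, Ndufa11b, Ndufb4c and Cox6c2 had at most 4 counts in any library, with Cox8c at 0 in all 6. Ndufb1-ps, left out by its name, had 1914, 1962 and 1859 counts in WT and 1697, 1477 and 1938 in Fmr1-KO (log2 fold-change -0.12, adjusted P = 0.0470, edgeR), with overlapping CPM.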
